A study of Mus musculus with 4 samples.

Results

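The purinergic P2 receptors described here are 9 genes, P2rx1, P2rx4, P2rx5, P2rx7, P2ry2, P2ry6, P2ry12, P2ry13 and P2ry14. They were taken as every probe set of the array whose annotated gene symbol is one of these names, which gave 15 of 45101 probe sets and 9 of 18193 genes. The study followed bone marrow of female C57Bl/6J mice aged 12 weeks as it formed osteoclasts, the multinucleated cells that resorb bone. Each of 4 times had 1 array. Day 1 was marrow on the day it was taken, and day 4 was marrow after 3 days in a-MEM with 10% FBS and 10 nM vitamin D3. On days 5 and 7 the same medium also held 20 ng/ml M-CSF, a growth factor of macrophages, and 40 ng/ml RANKL, the cytokine that drives osteoclast formation. Whether 1 culture gave all 4 samples, and how many mice were used, is not in the labels. No array of days 5 or 7 lacked the cytokines, so cytokines and time in culture cannot be told apart.

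P2 receptors sense nucleotides outside the cell. The P2rx genes encode channels that ATP opens to sodium and calcium, and the P2ry genes encode G protein-coupled receptors for ATP, UTP, ADP, UDP or UDP-glucose. Cells release these nucleotides through channels and on damage, and enzymes on the cell surface cut them down to adenosine. In bone, nucleotides are known to act on osteoclasts, on their macrophage-like precursors and on osteoblasts, and in blood they act on platelets and leukocytes.

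All values are signals of Affymetrix probe sets on a linear scale. Signals under 32.4, the median of all values, were set to that floor before log2 differences were taken, and a gene on 1 side of the floor has a bound, written as at least N-fold. Calls of higher or lower needed 2-fold, which is a size and not a test, because 1 array per day leaves no replicate spread. The pooled SD of log2 differences between probe sets of the same gene is given as a measure of how well probe sets agree on the same arrays. It does not hold the spread between arrays, RNA preparations or cultures. It was 0.41 for day 4 over day 1, 0.29 for day 5 over day 4, 0.26 for day 7 over day 5, 0.36 for day 7 over day 4 and 0.53 for day 7 over day 1. Signals of different probe sets depend on the probes, so levels are compared between days and not between genes.

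Every sample is labelled a primary osteoclast, but the day 1 array did not show the osteoclast pattern. Of 11 osteoclast markers Calcr, Dcstamp, Ocstamp and Oscar were under the floor on day 1, Calcr alone was under it on day 4, and none was under it on days 5 and 7. The summed signal of these 11 markers was 9690, 29070, 47548 and 55971 on days 1, 4, 5 and 7. Other cell types were on the arrays as well. The sum of 11 platelet markers was 18054, 22665, 15257 and 8424 in the same order of days. Most of the later platelet sum was Pf4, and the other 10 markers of that list summed to 9426, 11674, 3386 and 397. The sum of 11 neutrophil markers was 117153, 73910, 40926 and 6213, and that of 10 macrophage markers was 39787, 74284, 69081 and 70668. The sum of 10 stromal and osteoblast markers was 2011, 27143, 35972 and 24711, and 3 of 4 red cell markers were above the floor on day 1 and 0 on the later days. In such mixed samples, fewer cells of a type and less RNA per cell cannot be told apart.

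The 9 receptors did not move as a group. By the brightest probe set of each, 4 were highest on day 1 (P2rx1, P2rx7, P2ry13 and P2ry14), 2 on day 4 (P2rx4 and P2ry6), 1 on day 5 (P2ry2) and 2 on day 7 (P2rx5 and P2ry12). At the end of the culture, P2rx5 and P2ry12 were at least 2-fold higher than in fresh marrow, and P2rx1, P2ry13 and P2ry14 were at least 2-fold lower. Among all 11967 genes above the floor on either array, 12.7% were that much higher and 16.2% that much lower. All 9 exceeded the floor on some array, and 7 did on all 4. P2rx1 was under it on day 7 and P2rx5 on days 1 and 4.

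**Figure D1:**
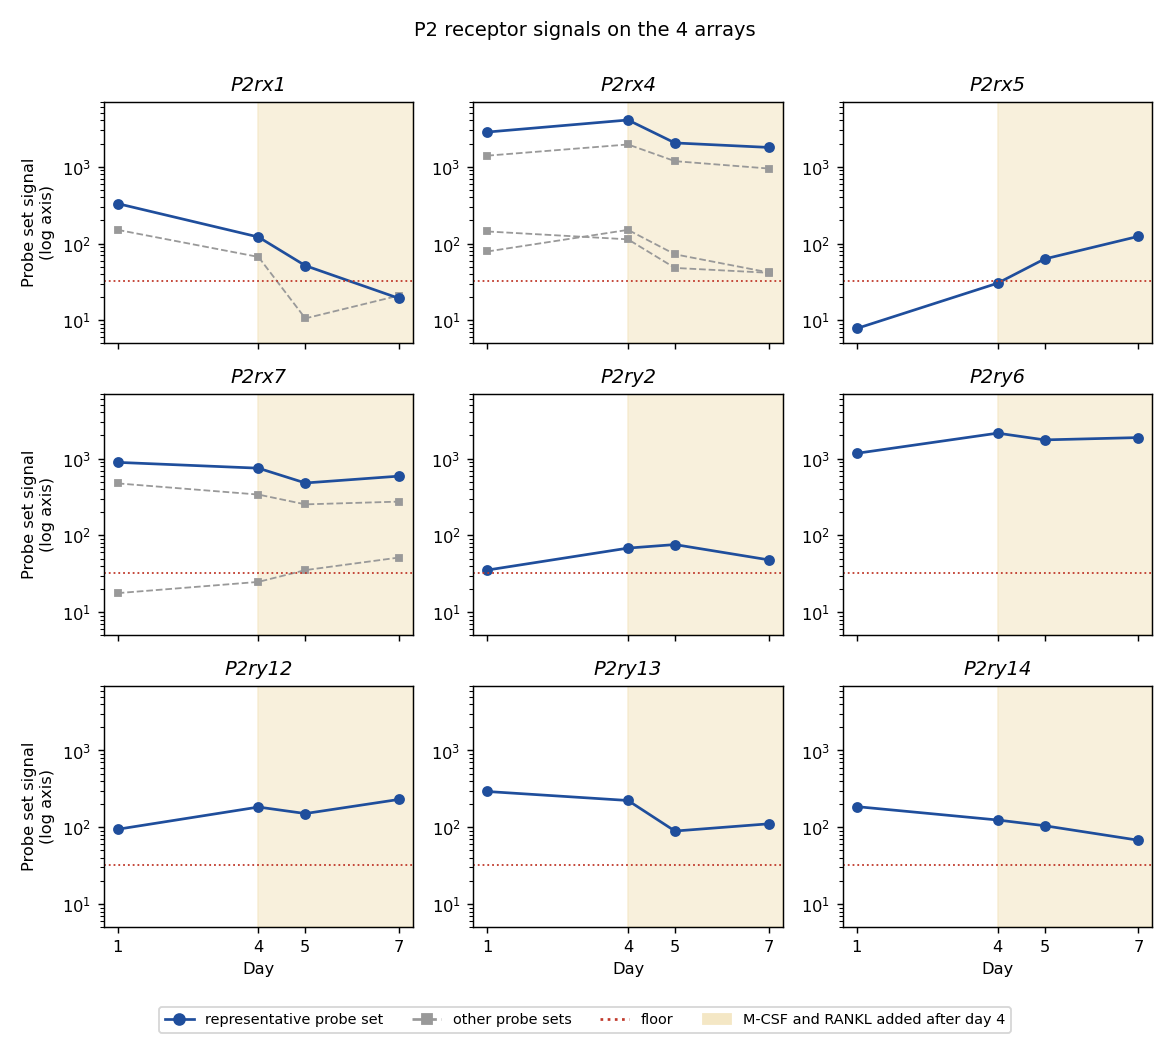
Signal of each probe set of the 9 P2 receptor genes (log axis) against day, with the brightest probe set of a gene in blue, its other probe sets in grey and the floor of 32.4 as a dotted line. P2rx1 goes under the floor by day 7, at 19.3, while P2rx5 is above it on days 5 and 7, at 62.9 and 123.9.

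P2rx1, an ATP-gated channel best known from platelets and smooth muscle, was the gene with the largest size of difference at the floor used, at day 7 over day 1. That value and the value of P2rx5 are both bounds set by the floor, and at a floor on the 25th percentile of all values they were -4.10 for P2rx1 and 3.88 for P2rx5 on the log2 scale, so their order by size is not fixed. The brightest probe set of P2rx1 had a signal of 331 on day 1, 122 on day 4, 51.5 on day 5 and 19.3 at day 7. The signal was lower at each later time and was under the floor at the end. Day 4 was 2.72-fold lower than day 1, day 5 was 2.36-fold lower than day 4, and day 7 was at least 10.2-fold lower than day 1. At a floor of 68.9, the 60th percentile of all values, the differences of days 5 and 7 over day 4 were both -0.82 on the log2 scale and no longer reached 2-fold. The second probe set had 151, 66.9, 10.6 and 21.0 on the 4 days. Day 4 was 2.25-fold below day 1 and day 5 at least 2.06-fold below day 4 on this probe set, and its values of days 5 and 7 are both under the floor and have no order.

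Counts of cell type markers past 2-fold are given here for the steps of P2rx1. On day 4 over day 1, 0 of 11 platelet markers were 2-fold lower and 0 were higher, where 8.65% of all genes were lower. Of most other cell types, many markers were lower. These were 6 of 11 neutrophil markers and 7 of 9 markers of eosinophils, basophils and mast cells. They were also 5 of 6 progenitor, 5 of 7 B cell, 3 of 4 T and NK cell and 3 of 3 red cell markers. Of dendritic cell markers 4 of 7 were lower and 2 higher, and of monocyte markers 2 of 4 were lower. Of osteoclast, macrophage and stromal markers 0 were lower. On day 5 over day 4, 9 of 11 platelet markers were lower, and on day 7 over day 5, 8 of 10 were lower. Of the platelet list, Gp6 was under the floor on day 5, and Gp1bb, Gp5, Gp6, Gp9 and Rab27b were under it on day 7. Neutrophil markers were lower in 8 of 11 cases on day 5 over day 4 and in 9 of 11 cases on day 7 over day 5. Of all genes, 4.04% and 5.84% were lower in the same comparisons. The part of any of these cell types in the P2rx1 signal was not tested.

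**Figure D2:**
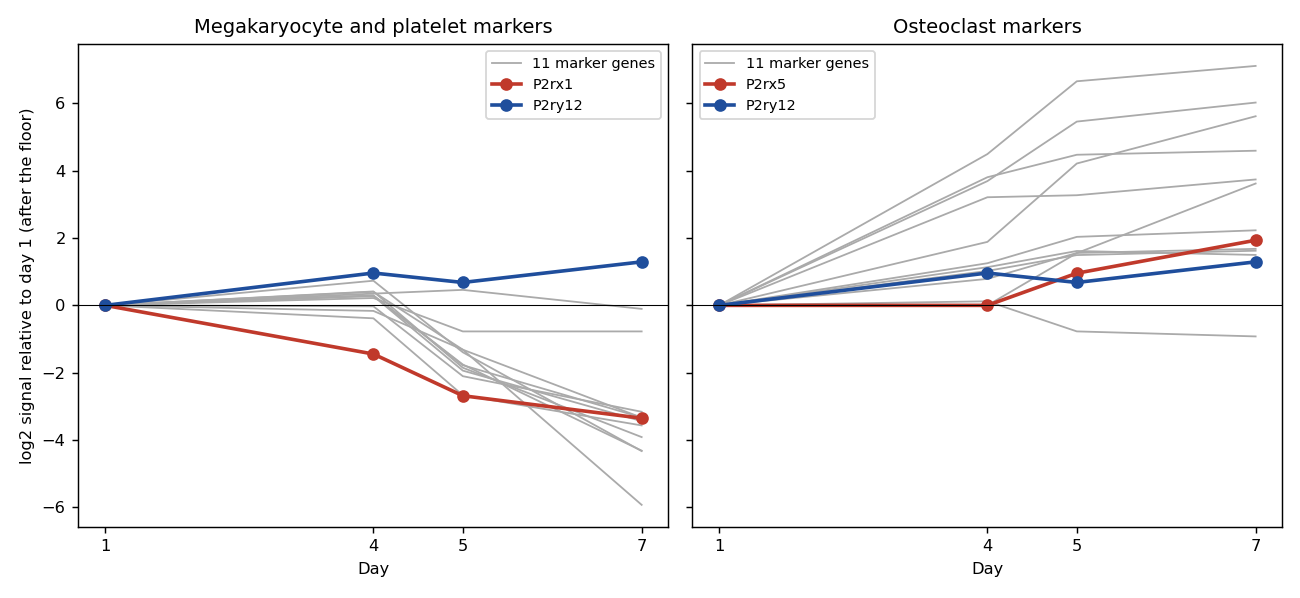
log2 signal relative to day 1, after the floor, for 11 megakaryocyte and platelet markers (left) and 11 osteoclast markers (right) in grey, with P2rx1, P2rx5 and P2ry12 in colour. P2rx1 is at -1.44 on day 4, when platelet markers lie between -0.38 and 0.73. P2ry12 is at 1.29 on day 7, when platelet markers lie between -5.92 and -0.10. The part of platelets in either signal was not tested.

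The RefSeq promoter of P2rx1 is shown because its gene was lower at each later time, with 2 probe sets at least 2-fold lower on day 4 over day 1. It covers the 250 bases before the start site at chr11:72998895-72999144 of GRCm38.p6, plus strand, written 5′ to 3′. Capitals mark matches, on either strand, to the motifs searched. The core of PU.1 sites was read as GAGGAA, AP-1 sites as TGANTCA and the core of NFAT sites as GGAAA. E-boxes that MITF can bind were read as CACGTG or, in a variant form, TCATGTG. Sites of the GATA factors were read as GATAAG, and RUNX sites as TGTGGT.
P2rx1 promoter: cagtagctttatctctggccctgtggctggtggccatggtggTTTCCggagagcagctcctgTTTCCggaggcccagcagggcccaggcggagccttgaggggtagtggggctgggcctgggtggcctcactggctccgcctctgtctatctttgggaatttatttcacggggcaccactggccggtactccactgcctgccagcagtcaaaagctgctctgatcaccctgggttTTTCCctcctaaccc
The 3 matches are all to GGAAA, read on the other strand as TTTCC, and 55.6% of 32851 promoter windows of this length hold that short motif. None of the other motifs was found in this window. A match is a run of letters and not a shown binding site.

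P2rx5, an ATP-gated channel that in mice is known to act in osteoclast maturation, moved the other way. Its single probe set had a signal of 7.83 on day 1, 30.4 on day 4, 62.9 on day 5 and 124 at day 7. It was under the floor before the cytokines were added and above it on both days with them. Day 7 was at least 3.82-fold higher than day 4 and at least 3.82-fold higher than day 1, since both earlier signals are replaced by the floor. Its steps lay just under the 2-fold threshold, at least 1.94-fold for day 5 over day 4 and 1.97-fold for day 7 over day 5. At the floor of 68.9, the difference of day 7 over either earlier day was 0.85 on the log2 scale and no longer reached 2-fold. While P2rx5 was still under the floor, 8 of 10 osteoclast markers were already at least 2-fold higher at day 4 than in fresh marrow. From day 4 to day 5 a further 2-fold rise was seen for 4 of 11 markers, and from day 5 to day 7 for 2 of 11. Of all genes, 10.0%, 2.02% and 0.853% were higher in these steps in turn. Comparing day 7 with day 4, 4 of 11 markers were higher and 1, Itgb3, was lower, against 3.12% and 9.12% of all genes. The share of osteoclasts in the P2rx5 signal was not tested.

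P2rx4 and P2rx7 are next to each other on chromosome 5 in the RefSeq gene order. P2rx4 encodes an ATP-gated channel of lysosomes and the surface of macrophages. Its brightest probe set had 2828 on day 1, 4060 on day 4, 2041 on day 5 and 1784 at day 7. The signal was highest just before the cytokines were added. Day 4 was 1.44-fold higher than day 1, day 5 was 1.99-fold lower than day 4, and day 7 was 2.28-fold lower than day 4. The 3 other probe sets of P2rx4 were also lower on day 5 than on day 4, by 1.65-fold, 2.08-fold and 2.36-fold, and lower on day 7 than on day 4, by 2.06-fold, 3.58-fold and 2.73-fold. The call for day 5 over day 4 thus depends on the probe set and the scaling, since quantile normalization gave -1.13 and median scaling -1.01 on the log2 scale against -0.99 as deposited. On day 4 over day 1 the probe sets split, with 3 higher and 1, of signal 113 against 144, lower. The 10 macrophage markers gave 5 higher and 0 lower on day 4 over day 1, and 1 higher and 1 lower on day 5 over day 4.

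P2rx7 encodes the channel that ATP opens at high levels and that is known to start release of IL-1 from macrophages. Its brightest probe set had 894 on day 1, 751 on day 4, 482 on day 5 and 591 at day 7. No difference between days reached 2-fold. Day 5 was 1.56-fold lower than day 4, with a log2 difference of -0.64, and day 7 was 1.23-fold higher than day 5. The second probe set, with 476, 340, 254 and 275, had the same order of days. The third probe set ran the other way, with 17.7, 24.8, 35.3 and 51.5, and was under the floor on days 1 and 4. On day 7 over day 4 it gave a bound of at least 1.59-fold higher, where the brightest probe set was 1.27-fold lower, so the direction of P2rx7 depends on the probe set.

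P2ry2 and P2ry6 encode the receptors for ATP and UTP (P2ry2) and for UDP (P2ry6). Both couple to the G protein Gq, which raises calcium, and the genes are neighbours on chromosome 7. P2ry6 had a signal of 1173 on day 1, 2146 on day 4, 1753 on day 5 and 1879 at day 7. It was higher on all 3 days of culture than in fresh marrow, and the culture days differed from each other by less than the pooled SD between probe sets. Day 4 was 1.83-fold higher than day 1, and day 7 was 1.60-fold higher than day 1. P2ry2 had 35.4, 68.3, 76.0 and 48.0 on the 4 days, with day 1 just above the floor. It was 1.93-fold higher on day 4 than on day 1 and 1.58-fold lower on day 7 than on day 5. Neither gene reached 2-fold in the 5 comparisons, although P2ry2 on day 5, its highest day, was 2.15-fold above day 1, its lowest, and each has 1 probe set. For P2ry2, days 5 and 4 differed by 0.15 and days 7 and 1 by 0.44 on the log2 scale. Both lay within the pooled SD of 0.29 and 0.53. Its day 7 over day 5 value was -0.66 as deposited and -0.33 with quantile normalization. On day 4 over day 1, 9 of 10 stromal and osteoblast markers and 5 of 10 macrophage markers were at least 2-fold higher. What these cells add to the signals of P2ry2 and P2ry6 was not tested.

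P2ry12, P2ry13 and P2ry14 encode receptors that couple to the G protein Gi. P2ry12 and P2ry13 answer to ADP, P2ry14 answers to UDP-glucose, and the receptor of P2ry12 is the target of the antiplatelet drug clopidogrel. All of these genes lie on chromosome 3, where P2ry13 and P2ry12 are neighbours. Against fresh marrow, P2ry12 was higher at the end of the culture, and P2ry13 and P2ry14 were lower.

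P2ry12 had a signal of 94.2 on day 1, 183 on day 4, 151 on day 5 and 231 at day 7. Every culture day was higher than fresh marrow. Day 4 was 1.95-fold and day 7 was 2.45-fold higher than day 1, and day 7 was 1.53-fold higher than day 5. Platelets carry this receptor. On day 7 over day 1, 9 of 11 platelet markers were at least 2-fold lower and 0 were higher. On the same comparison 10 of 11 osteoclast markers, 6 of 10 macrophage markers and 7 of 10 stromal and osteoblast markers were higher. On day 4 over day 1, 8 of 10 osteoclast, 5 of 10 macrophage and 9 of 10 stromal and osteoblast markers were higher. The part of any of these cells in the P2ry12 signal was not tested. P2ry12 has 1 probe set, so no second one could be compared.

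P2ry13 had 292 on day 1, 223 on day 4, 89.3 on day 5 and 111 at day 7. The arrays with cytokines were lower than both arrays without them. Day 5 was 2.50-fold lower than day 4, and day 7 was 2.01-fold lower than day 4 and 2.64-fold lower than day 1. The log2 difference of day 7 over day 4, -1.01 as deposited, was -0.68 with quantile normalization and -0.85 with median scaling, so that call depends on the scaling. P2ry14, known from progenitor cells and leukocytes of marrow, had 186, 124, 105 and 67.8 on the 4 days. It was lower at each later time, and day 7 was 2.74-fold lower than day 1, although no single step reached 2-fold. Days 4 and 5 differed by 0.25 on the log2 scale, within the pooled SD of 0.29. Day 7 over day 5 was -0.63 as deposited and -0.30 with quantile normalization. Of 6 progenitor markers, 5 were lower on day 4 over day 1 and all 6 were under the floor on day 7. On day 5 over day 4, 4 of 7 dendritic cell markers, 9 of 11 platelet markers and 8 of 11 neutrophil markers were lower. On day 4 over day 1, 4 of the 7 dendritic cell markers were lower and 2 were higher. What these cells add to the signals of P2ry13 and P2ry14 was not tested.

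The promoters of P2ry12 and P2ry13 are shown because these adjacent genes on the same strand differed in direction between day 7 and day 1. Both cover the 250 bases before the start site in GRCm38.p6 on the minus strand, chr3:59262986-59263235 for P2ry12 and chr3:59210883-59211132 for P2ry13, with capitals as for P2rx1.
P2ry12 promoter: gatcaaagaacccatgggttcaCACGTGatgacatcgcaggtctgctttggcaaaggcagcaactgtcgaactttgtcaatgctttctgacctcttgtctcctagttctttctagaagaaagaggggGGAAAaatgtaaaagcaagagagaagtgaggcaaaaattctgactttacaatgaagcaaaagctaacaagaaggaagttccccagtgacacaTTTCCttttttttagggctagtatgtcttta
P2ry13 promoter: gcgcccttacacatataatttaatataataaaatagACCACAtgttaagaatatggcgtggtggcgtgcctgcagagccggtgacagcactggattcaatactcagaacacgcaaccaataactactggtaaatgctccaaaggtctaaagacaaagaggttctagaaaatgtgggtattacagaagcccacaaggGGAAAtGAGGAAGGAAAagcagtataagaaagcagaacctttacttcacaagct
The P2ry12 window holds CACGTG, found in 6.02% of promoter windows, and 2 matches to GGAAA. The P2ry13 window holds GAGGAA, found in 23.3% of windows, 48 bases before the start site, with a GGAAA match directly after it and another before it, and TGTGGT on the other strand, found in 4614 of 32851 windows. No matches of different motifs overlapped in the 3 windows shown. All 4 windows of P2ry14 also hold GAGGAA, at 3 separate sites because a pair of windows overlap. Promoters were found for 7 of the 9 genes.

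Set side by side, the 5 comparisons gave between 0 and 5 calls among the 9 genes. On day 4 over day 1, 0 receptors were at least 2-fold higher, where 10.0% of 11981 genes above the floor on either array were, and 1 was lower, where 8.65% were. The median log2 difference was 0.13 for the 8 receptors measured and 0.06 for all genes. On day 5 over day 4, 0 were higher and 2, P2rx1 and P2ry13, were lower, against 2.02% and 4.04% of all genes. The median was -0.29 for the receptors, where the pooled SD between probe sets was 0.29, and 0.06 for all genes.

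On day 7 over day 5, 0 receptors were higher and 0 were lower, against 0.853% and 5.84% of all genes. The median was 0.10 for the receptors and -0.11 for all genes, and the value for all genes moved to 0.03 under quantile normalization and to 0.06 under median scaling. The receptors' median less that of all genes was 0.21 as deposited, 0.14 with quantile normalization and 0.22 with median scaling. Higher calls made up 12.7% of all called genes as deposited, 31.6% with quantile normalization and 27.2% with median scaling.

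On day 7 over day 4, 1 receptor was higher (P2rx5) and 3 were lower (P2rx1, P2rx4 and P2ry13), against 3.12% and 9.12% of all genes. The median was -0.51 for the receptors and -0.09 for all genes. Higher calls made up 25.5% of all called genes as deposited, 43.7% with quantile normalization and 39.9% with median scaling. On day 7 over day 1, 2 were higher (P2rx5 and P2ry12) and 3 were lower (P2rx1, P2ry13 and P2ry14), against 12.7% and 16.2% of all genes. The median was -0.60 for the receptors and 0.01 for all genes, and higher calls made up 43.9% of all called genes as deposited and 56.2% with quantile normalization. The median of all genes was then 0.17 with quantile normalization and 0.14 with median scaling, and the receptors' median less that of all genes was -0.60 as deposited, -0.68 with quantile normalization and -0.59 with median scaling. With 9 genes these counts are small, and comparisons that share an array do not stand apart from each other.

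**Figure D3:**
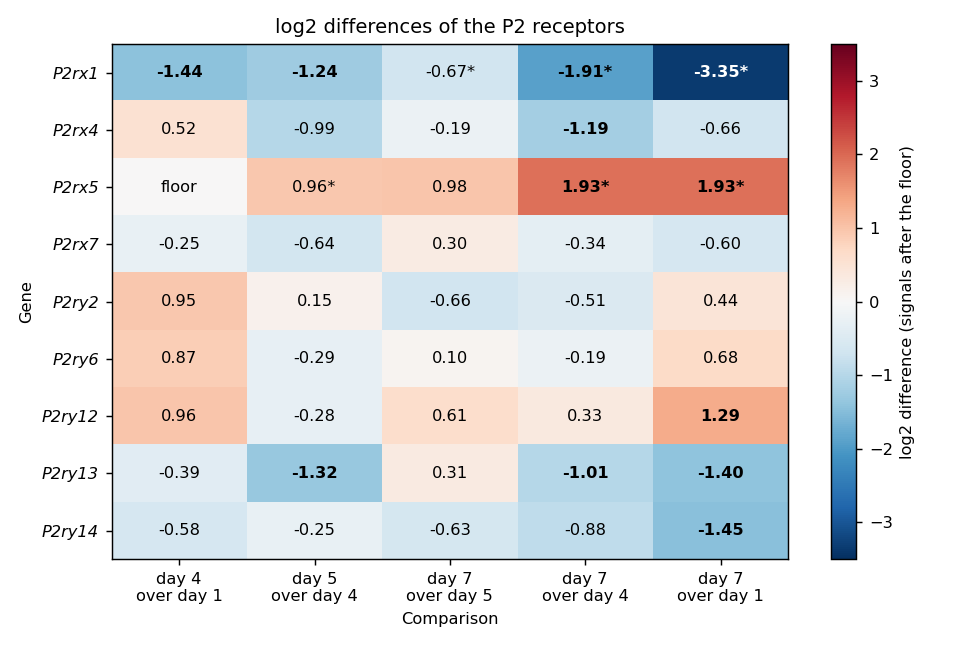
log2 difference of each receptor (rows) in the 5 comparisons (columns), with red for higher and blue for lower on the first day named, bold for at least 2-fold, a star for a bound and "floor" where both signals were under the floor. P2rx1 is at -3.35 and P2rx5 at 1.93 on day 7 over day 1, and both are bounds.

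The levels of several receptors on neighbouring ranks did not differ beyond the pooled SD between probe sets. For P2rx7, days 1 and 4 differed by 0.25 and days 4 and 7 by 0.34 on the log2 scale. For P2ry12, days 7 and 4 differed by 0.33 and days 4 and 5 by 0.28. For P2rx4, days 1 and 5 differed by 0.47 and days 5 and 7 by 0.19, both within the SD of 0.51 (days 1 and 5) and 0.26 (days 5 and 7). Day 7 over day 1 was -0.66 for P2rx4, beyond the SD of 0.53, so only the place of day 5 is not resolved. For P2ry13, days 1 and 4 differed by 0.39, whereas days 4 and 7 differed by 1.01. Every step in the order of P2rx1 was larger than the pooled SD, from at least 0.67 for days 5 and 7 to 1.44 for days 1 and 4. The SD holds no spread between arrays, so a larger step does not show that an order would repeat.

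Genes whose profile over the 4 arrays was most like that of a receptor were sought among 10034 genes above the floor on all arrays. The measure was the root mean square distance between log2 profiles centred on their own mean, and it describes these arrays without a test. The 3 nearest genes were Zfp90 (0.06), Clu (0.06) and Tmem250-ps (0.07) for P2rx4. For P2ry2 they were Zcchc3, Snhg17 and Disp1, at 0.03 to 0.04. For P2ry12 they were Abhd14b (0.05), Cyp51 (0.09) and Lrrc27 (0.09), where Cyp51 encodes an enzyme of cholesterol synthesis. For P2ry13 they were Rtl6 (0.05), Bmf (0.07) and Rasal3 (0.07), where Bmf encodes a protein that promotes cell death. For P2ry14 they were Zbtb40, Ralgapa1 and Uvssa, at 0.03 to 0.04. With 4 points many genes have like profiles, and P2rx1, P2rx5, P2rx7 and P2ry6 were not searched because they were under the floor on some array or varied by less than 2-fold.

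Among the genes that supply the ligands, Panx1 and Gja1 were higher in culture than in fresh marrow. Of 9 genes of nucleotide release above the floor, 2 were higher and 1 was lower on day 4 over day 1, and 3 were higher and 1 was lower on day 7 over day 1. Of all genes, 10.0% were higher and 8.65% lower in the first of these comparisons, and 12.7% were higher and 16.2% lower in the second. Panx1, which encodes a channel that lets ATP out of cells, had 239, 951, 842 and 517 on the 4 days and was 3.97-fold higher on day 4 than on day 1. The connexin gene Gja1 had 319, 2474, 5061 and 3943, with day 4 7.75-fold higher than day 1 and day 5 2.05-fold higher than day 4. Stromal cells also express Gja1, and 9 of 10 stromal and osteoblast markers were higher on day 4 over day 1. Calhm6 was 2.78-fold lower on day 4 than on day 1 and 2.45-fold lower on day 5 than on day 4. Slc17a9, which loads ATP into vesicles, had 130, 116, 60.9 and 83.3 and stayed under 2-fold at every step.

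A further list holds genes of enzymes that break nucleotides down or convert them, Ak1 among the latter. Several had higher values on day 4 than on day 1, and several ended with lower values on day 7 than on day 4. Of 9 measured on day 4 over day 1, 3 were higher and 1 was lower, and of 9 measured on day 7 over day 4, 0 were higher and 5 were lower. The shares of all genes on day 7 over day 4 were 3.12% higher and 9.12% lower. Entpd1, the surface enzyme that turns ATP and ADP into AMP, had 258, 487, 110 and 134 on the 4 days. It was 4.44-fold lower on day 5 than on day 4, the interval in which P2rx1 and P2ry13 were also lower by over 2-fold. Nt5e, which turns AMP into adenosine, had 88.6, 99.1, 37.5 and 16.9 and was 2.64-fold lower on day 5 than on day 4. Alpl, the alkaline phosphatase of osteoblasts, had 56.6, 182, 250 and 77.3 and was 3.23-fold lower on day 7 than on day 5. It is also 1 of the 10 stromal and osteoblast markers, of which 9 were higher on day 4 over day 1 and 5 were lower on day 7 over day 5. The part of stromal cells in the signals of these enzymes was not tested. Enpp3 was at least 10.2-fold higher and Ak1 8.55-fold higher on day 4 than on day 1.

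Of 8 genes of adenosine handling and adenosine receptors measured on day 4 over day 1, 1 was higher (Slc29a1, a nucleoside transporter, 2.29-fold) and 1 was lower (Dpp4, 4.02-fold), and on day 7 over day 1, 2 were higher and 1 was lower. The shares of all genes given above for both comparisons (10.0% and 8.65%, then 12.7% and 16.2%) hold for this list and the next. The receptor gene Adora3 had 56.7 on day 1 and was under the floor later, and Adora2a and Adora2b were not analysed here. The next list holds 11 genes of the inflammasome and IL-1, chosen around the IL-1 release that the P2rx7 channel is known to start. Among these 11 genes, 2 were higher and 1 was lower on day 4 over day 1, and 1 was higher and 2 were lower on day 7 over day 1. The sensor gene Nlrp3 had 241, 336, 217 and 294, and the protease gene Casp1 had 831, 961, 1153 and 1256, with no step of 2-fold. Il1b, the cytokine gene, had 2846, 383, 102 and 51.0, and day 7 was 55.8-fold lower than day 1. On that comparison 11 of 11 neutrophil markers were lower too, from 7.55-fold (Mmp8) to 162-fold (Mpo). Of 4 monocyte markers 3 were lower, while Fn1 was 1.47-fold higher. The part of these cells in the Il1b signal was not tested. Il1a was 2.92-fold lower on day 7 than on day 5, Txnip was 2.36-fold higher, and the IL-1 antagonist gene Il1rn was 2.19-fold higher on day 4 than on day 1.

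**Figure D4:**
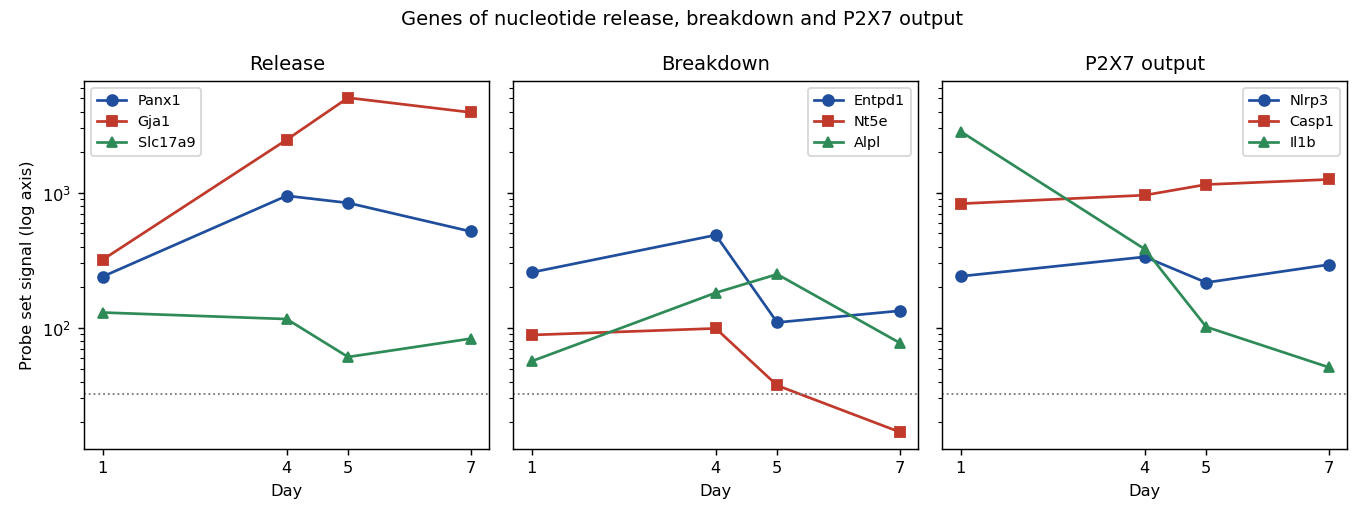
Probe set signal (log axis) against day for 3 genes each of nucleotide release, nucleotide breakdown and the inflammasome and IL-1, with the floor as a dotted line. Entpd1 is at 110 on day 5 against 487 on day 4, and Il1b is at 51.0 on day 7 against 2846 on day 1.

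The P2ry receptors act through G proteins, phospholipase C and calcium. Of 23 genes of G proteins and calcium release measured, 3 were higher and 3 were lower on day 4 over day 1, 0 were higher and 1 was lower on day 5 over day 4, and 2 were higher and 5 were lower on day 7 over day 1. In the same 3 comparisons 10.0%, 2.02% and 12.7% of all genes were higher, and 8.65%, 4.04% and 16.2% were lower. Gnai1, a Gi subunit, was at least 11.3-fold higher on day 4 than on day 1 and 2.40-fold lower on day 7 than on day 5. Gnai2, also a Gi subunit, had 5232, 4178, 4031 and 4997 and Gnaq, the Gq subunit, had 1290, 1630, 1526 and 1572, with no step of 2-fold for either. Plcb1 was 2.26-fold lower on day 4 than on day 1, Gna12 was 2.11-fold higher, and Rgs2, a regulator that shortens Gq signals, was 2.63-fold lower. Rgs2 was 2.24-fold lower on day 5 than on day 4 as well.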

How the data were processed

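Total RNA of 4 samples was hybridised to 1 Affymetrix mouse array each. The authors deposited 1 linear intensity per probe set and array. GCOS 1.4 and MAS5 are the tools in the submitters' processing notes. The target of any scaling and the genome build are not given in the sources used here, and detection calls were not used here. The 64 control probe sets were left out. The floor was 32.4, and a gene with several probe sets was represented by the brightest, by mean log2 signal after the floor. Of 45037 other probe sets, 34945 had 1 symbol in the platform annotation, and 34741 of those had an Entrez number in a RefSeq table of GRCm38.p6, which changed 0 symbols. Promoter sequences are from RefSeq. The members, the lists and the 2-fold rule were chosen with earlier results of these data known. All members are named, with up to 4 genes of each pathway list that had the largest differences of at least 2-fold between neighbouring days, and a few listed genes always. With 1 array per day there was no test, and the number of arrays limits the precision. The calling code was run on simulated data with an assumed noise and planted differences larger than 2-fold in genes well above the floor. That run does not bear on receptor calls near 2-fold or on bounds. Calculations used Python 3.11.15, numpy 2.4.6, pandas 2.3.3 and matplotlib 3.10.9.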

Additional observations from a re-analysis of the deposited data

How the results depend on the processing

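Of 331 differences of single receptors recomputed under other settings, 306 moved by less than the pooled SD between probe sets, 25 moved by more, and 0 of those called changed sign; 1 that was not called did (P2rx7, day 7 over day 4, 0.01 with the mean over its probe sets against -0.34). A floor at the 25th percentile of all values gave 1 receptor higher on day 4 over day 1 and 1 higher on day 5 over day 4 (P2rx5 in both). It also gave 1 lower on day 7 over day 5 (P2rx1). A floor at the 60th percentile gave 1 lower on day 5 over day 4 (P2rx1 lost), 0 higher on day 7 over day 4 and 1 higher on day 7 over day 1. Quantile normalization gave 1 higher on day 4 over day 1 (P2ry12) and 1 higher on day 7 over day 5 (P2rx5), and median scaling also gave 1 higher on day 7 over day 5 (P2rx5). Without probe sets designed to match several transcripts, which leaves no probe set for P2rx1, P2ry2 and P2ry12, 0 were lower on day 4 over day 1 and 1 was higher on day 7 over day 1. A threshold of 1.8-fold, chosen after seeing the data, gave 3 higher on day 4 over day 1 (P2ry2, P2ry6 and P2ry12), 1 higher on day 5 over day 4 and 1 higher on day 7 over day 5 (P2rx5 in both). The cause of the shifts under other scalings was not tested. Using the second brightest probe set of P2rx1, P2rx4 and P2rx7, also chosen after seeing the data, or adding 16 to each signal with no floor, left all counts within 1.5 times. No paired analysis was possible because each day has 1 array.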

Other observations

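Of 9 other genes of the P2 family or its close relatives, 4 exceeded the floor on some array and 5 did not (P2rx2, P2rx3, P2rx6, Gpr17 and Gpr34). P2ry1, the second ADP receptor gene of platelets, had a signal of 53.7 on day 1, 50.3 on day 4, 26.8 on day 5 and 4.86 at day 7. It was under the floor on both days with cytokines, on which P2ry12 had 151 and 231. P2ry10, a receptor gene of lymphocytes, had 216, 52.0, 14.2 and 9.15, while P2ry10b, its neighbour on the X chromosome, had 105, 71.7, 107 and 170. These relatives were thus under the floor (P2ry10) and at their highest (P2ry10b) on day 7. P2ry4 had 38.8 on day 1 and was under the floor later.

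Pf4, a chemokine gene of platelets, stood apart from the other platelet markers, with 8628, 10990, 11871 and 8027 on the 4 days. The other 10 markers of that list were between -5.92 and -0.77 on the log2 scale on day 7 over day 1, where Pf4 was at -0.10. The value of -0.77, that of Gp6, is a bound set by the floor. Those of Gp1bb, Gp5, Gp9 and Rab27b are bounds too, since all of these genes were under the floor on day 7.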
